A study of Mus musculus with 15 samples.

Results

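Interferon-stimulated and innate sensing genes were followed in laser-captured spinal motor neurons of a mouse model of spinal muscular atrophy (SMA). The genes are 31 named genes, matched by symbol among the 36144 rows of the gene table, and all 31 had a row. By role they are 6 genes of RNA sensing and its signal chain (Ifih1, Ddx58, Dhx58, Tlr3, Mavs, Trim25), 5 transcription factors (Irf1, Irf3, Irf7, Irf9, Stat2) and 20 effectors or modifiers. The effectors are Ifit1, Ifit2, Ifit3, Ifi27, Ifi35, Ifi44, Isg15, Oas1a, Oasl2, Mx1, Mx2, Rsad2, Usp18, Bst2, Rtp4, Xaf1, Ifitm2, Ifitm3, Parp14 and Lgals3bp.

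The study took lumbar motor neurons of segments L1 to L3 at postnatal day 6, traced with cholera toxin subunit B, and asked how their expression responded when p53 signalling was modulated. Each of 5 groups had 3 libraries, which the series calls biological replicates. Whether animals were pooled for a library is not given in the sources used here. WT mice were Smn+/+;SMN2;SMNΔ7 littermates given vehicle, and SMA mice were Smn-/-;SMN2;SMNΔ7, also given vehicle. The other groups were SMA mice given MW150, an inhibitor of the kinase p38α, at 5 mg/kg, Pifithrin-alpha, an inhibitor of p53, at 2.2 mg/kg, or 3 mg/kg of SMN-C3, which shifts the splicing of SMN2. The drugs were injected into the peritoneum once a day from postnatal day 0. All groups, WT included, carry the human SMN2 and SMNΔ7 transgenes on an FVB background, with equal proportions of both sexes, so WT here is not a mouse without transgenes. Libraries are named by group and replicate.

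As background, cells detect foreign or misplaced RNA with the receptors RIG-I (Ddx58) and MDA5 (Ifih1) in the cytoplasm and with Tlr3 in endosomes. The cytoplasmic receptors signal through Mavs on mitochondria to the factors Irf3 and Irf7, which switch on type I interferon genes. Secreted interferon binds the Ifnar1 and Ifnar2 receptor, and factors that include Stat2 and Irf9 then induce interferon-stimulated genes in the nucleus, whose products block viral entry, translation and replication. Several of these genes, Irf7 and Isg15 among them, are known to be low in resting cells and strongly inducible. Some interferon-related genes have also been described as p53 targets. In the spinal cord both neurons and microglia can respond to interferon.

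Values are transcripts per 1000000 (TPM), a level per transcript length; all libraries share that total. TPM levels can be compared between genes. The depth in reads is not in the tables. Differences are log2 changes of group means of log2(TPM+1), which understate the change of low genes. They were tested with limma across the 15425 genes that reached 1 TPM in at least 3 libraries, and a gene was called where its Benjamini-Hochberg adjusted p was under 0.05.

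The libraries held motor neuron RNA: none of 12 motor neuron markers was at 0 in any library, and their summed TPM lay between 1942 and 3652. They also held RNA of other cells, since astrocyte and oligodendrocyte lineage markers were never at 0 either. Astrocyte markers summed to 956 to 2305 TPM, oligodendrocyte lineage markers to 518 to 6617 TPM and red blood cell markers to 300 to 3548 TPM. In SMA 2 and SMA+MW150 3 the oligodendrocyte lineage sums, 4762 and 6617 TPM, were above the motor neuron sums, 2554 and 2810 TPM. Smn1 matched the genotypes, with 16.3 ± 7.18 TPM (SD, n = 3) in the WT libraries against 0.154 ± 0.267 TPM in those of SMA mice; the log2 change was -3.84 (limma, adjusted p 0.000154). Its means in the treated groups were 0.302 to 0.638 TPM. Between 12311 and 14916 genes per library reached 1 TPM. The share of TPM from mitochondrially encoded genes was highest in WT 1 (21.9%) and SMA+Pifithrin-alpha 3 (20.4%), then in SMA+Pifithrin-alpha 2 (12.6%) and SMA+SMN-C3 1 (11.3%); elsewhere it was 3.76% to 7.55%. Markers of microglia, the resident immune cells of the spinal cord, were present in every library, and none of the 14 was at 0 in any of them. Their summed TPM was 75.2 to 102 for WT, 196 to 228 for SMA, and 140 to 200 (MW150), 83.2 to 147 (Pifithrin-alpha) and 101 to 137 (SMN-C3) for treated SMA libraries. The 9 markers of T, B and natural killer cells summed to 0.143 to 4.75 TPM, and none of them was tested.

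Of the 31 genes, 12 averaged under 1 TPM over the 15 libraries and 11 were listed at 0 in at least 1 library. The filter kept 20 genes for testing: 5 of the 6 sensing genes, 4 of the 5 transcription factors and 11 of the 20 effectors. The 11 genes left out were Ifih1, Irf7, Ifit1, Ifit3, Ifi44, Oas1a, Oasl2, Mx1, Mx2, Rsad2 and Parp14. Several of these are the genes by which a strong interferon response is usually recognised. Irf7, which amplifies interferon production, had a median of 0.208 TPM and a highest value of 1.39 TPM, in SMA 1. Ifit1, an inhibitor of viral translation, had a median of 0.0716 TPM and reached 1.05 TPM in SMA+MW150 3 alone. Ifit3, a partner of Ifit1, never exceeded 0.429 TPM. Mx2 belongs to the family of antiviral Mx GTPases and is annotated as a polymorphic pseudogene. Mx2 and Oasl2, of the 2′-5′ oligoadenylate synthetase family, were highest in WT libraries, at 2.31 TPM in WT 1 and 2.15 TPM in WT 2. Rsad2, which encodes viperin, reached at most 1.06 TPM, in SMA+SMN-C3 1.

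**Figure D1:**
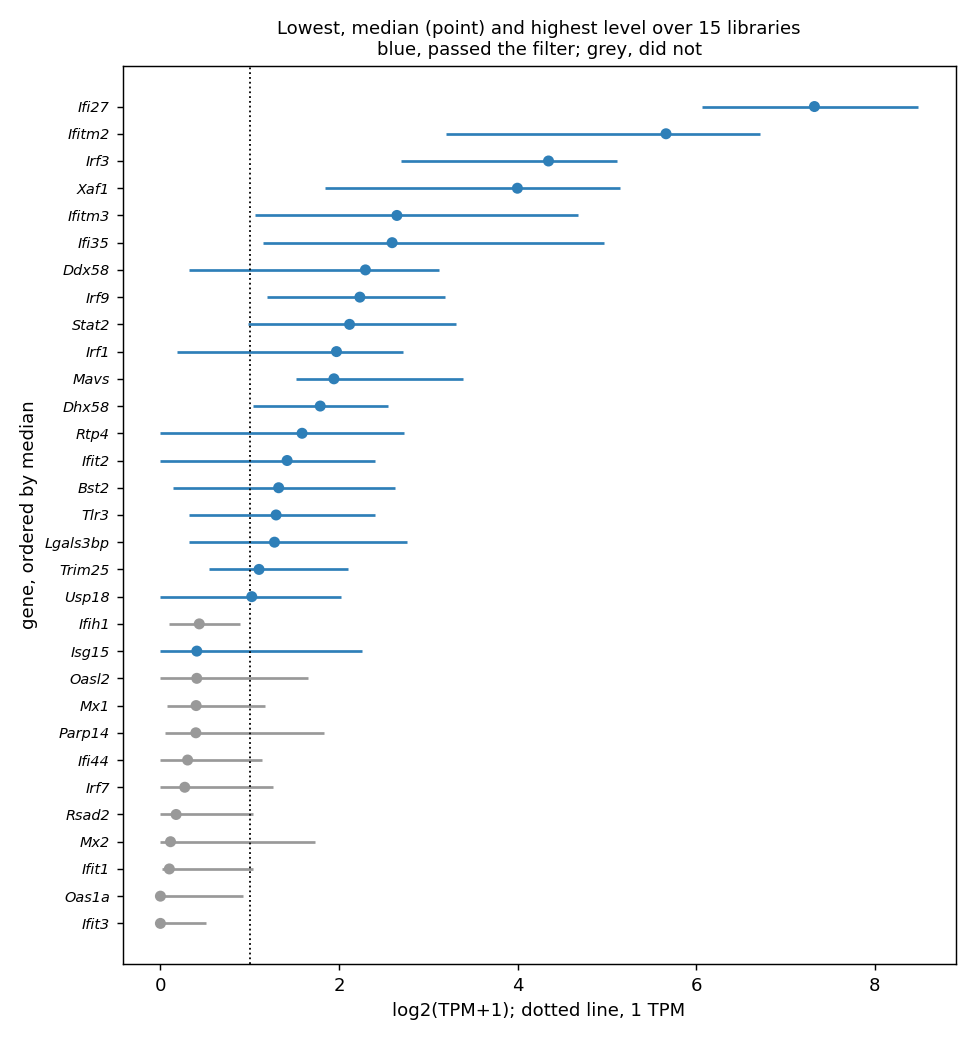
Level of each of the 31 genes as log2(TPM+1), with the lowest, the median (point) and the highest of the 15 libraries, ordered by the median. The dotted line marks 1 TPM; the 20 tested genes are blue and the 11 genes left out by the filter are grey, and they lie at the low end together with Isg15.

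A smaller set was well above the floor. The 4 genes at 10 TPM or more on average were Ifi27, Ifitm2, Irf3 and Xaf1, and 9 genes reached 1 TPM in every library (these 4 with Ifi35, Ifitm3, Irf9, Mavs and Dhx58). Ifi27, a small membrane protein gene, was the most abundant of them. The WT libraries held 68.1, 180 and 106 TPM of it and the SMA libraries 356, 198 and 150 TPM, so the groups overlapped. Part of the signal of 2 of the abundant genes is uncertain. Of the 31-base words in the transcripts of Ifitm2, 55.5% also occur in other genes, mostly in Gm45717, which overlaps it on the same strand. For Ifitm3 the share was 20.5%, mostly with Ifitm1. Reads of such stretches could be split between the copies.

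In the SMA libraries several effector RNAs stood above all WT libraries, but limma called 0 of the 20 tested genes. All 20 tested genes had a log2 change above 0 in SMA against WT (66.5% of all tested genes did), but Ddx58 and Stat2 were below 0 under median-of-ratios scaling and quantile normalization, and Ddx58 also after rescaling without mitochondrial genes. Their median was 0.73, beside 0.24 for all tested genes. At an unadjusted p under 0.05, 7 of the 20 were higher and 0 lower (Isg15, Ifitm2, Ifi35, Mavs, Ifit2, Ifi27 and Lgals3bp), against 10.6% higher and 2.88% lower of all tested genes. Among all tested genes, 0.363% were called, and among the 20 genes 0. The lowest adjusted p was 0.081, that of Isg15. In 5 genes all SMA libraries lay above all WT libraries (Ifit2, Ifi35, Isg15, Ifitm2 and Mavs), which held for 14.5% of all tested genes. The effectors had a median log2 change of 0.999, the transcription factors 0.47 and the sensing genes 0.37; the difference between these roles was not tested.

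The absence of calls depended on settings. Without SMA+Pifithrin-alpha 3, a library of neither group that enters the fit through the shared spread, Ifitm2, Isg15 and Ifi35 were called (limma, adjusted p 0.0364 to 0.0467), as were 114 of all tested genes. Leaving out any other single library gave 0 calls among the 20. With limma's array weights, which give less weight to noisy libraries, Ifitm2 and Isg15 were called. That fit called 100 of all tested genes and gave WT 1 a weight of 0.138. Without WT 1 and SMA+Pifithrin-alpha 3 (the libraries with the highest mitochondrial share) Ifitm2 was called, among 88 genes in all. Isg15 had passed the filter through the SMA libraries. Under median-of-ratios scaling, which brought the median of all tested genes to 0.04, the median of the 20 genes was 0.57. The summed microglia markers were also higher in every SMA library than in every WT library, and their part in the result was not tested. In bulk samples more cells of a type and more RNA per cell cannot be told apart.

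**Figure D2:**
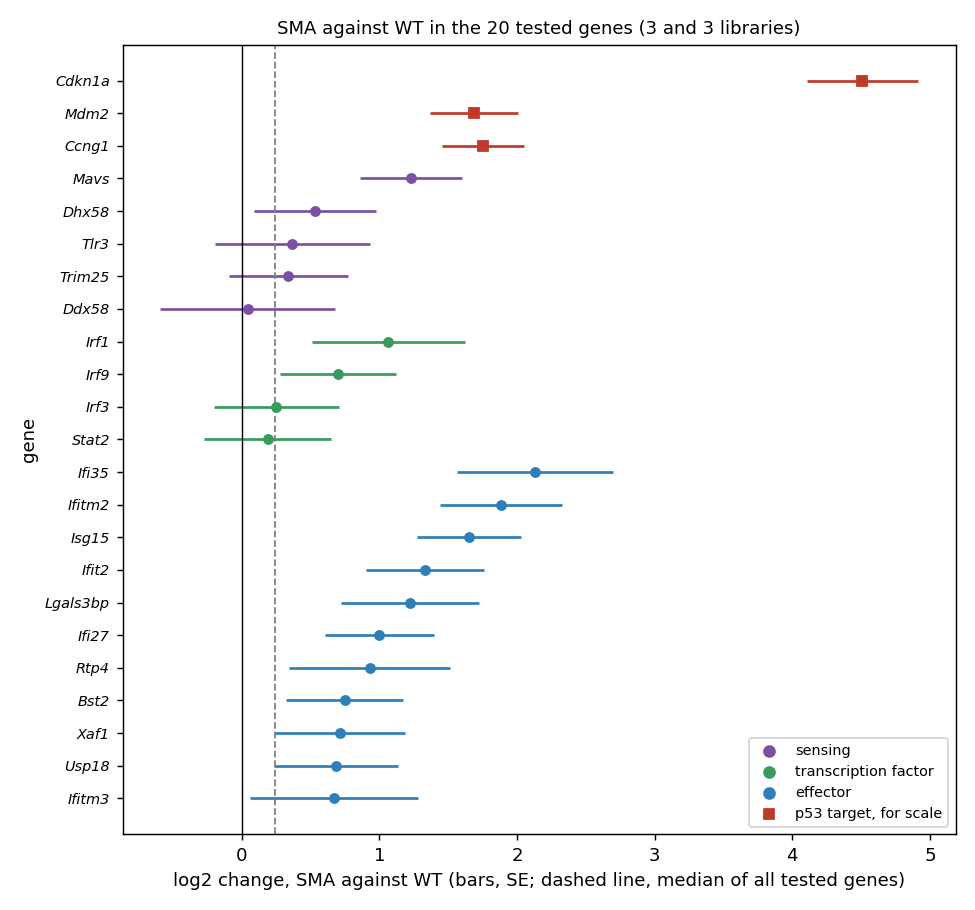
Log2 change between SMA and WT of the 20 tested genes by role, with bars of 1 standard error from limma on log2(TPM+1) values of 3 libraries a group, and 3 p53 targets (squares) for scale; the dashed line is the median of all tested genes. All 20 points lie right of 0, from 0.04 (Ddx58) to 2.13 (Ifi35), though Ddx58 and Stat2 were below 0 under other scalings, and Cdkn1a is at 4.51.

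Isg15 encodes a ubiquitin-like protein that is conjugated to other proteins during an interferon response. It lies at chr4:156199424-156200818 on the minus strand (GRCm38, as are all positions here). WT 1 to 3 held 0.0887, 0 and 0 TPM of it, and SMA 1 to 3 held 1.13, 3.78 and 2.32 TPM. It was 0.735, 0.326 and 0.885 TPM with MW150, 0.657, 1.22 and 0 TPM with Pifithrin-alpha and 0, 0 and 0.296 TPM with SMN-C3. All 3 SMA libraries were above every WT, MW150 and SMN-C3 library, while SMA+Pifithrin-alpha 2 was above SMA 1. The log2 change from WT was 1.65 (SE 0.38; limma, adjusted p 0.081). Isg15 is also the 1 tested gene that passed the filter through the SMA libraries, since no WT library reached 1 TPM, so a difference was built into its selection. Of its 31-base words 13.1% occur in other genes.

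Ifi35, which encodes an interferon-induced leucine zipper protein, lies at chr11:101448407-101458698 on the plus strand. Its WT levels were 1.33, 2.47 and 3.79 TPM and its SMA levels were 30.3, 13.6 and 6.16 TPM. The treated levels were 6.24, 8.77 and 5.71 TPM (MW150), 11.2, 5.04 and 1.23 TPM (Pifithrin-alpha) and 4.60, 2.75 and 3.36 TPM (SMN-C3). SMA 1 was the highest library, and even the lowest SMA library was above all WT libraries. Its log2 change, 2.13 (SE 0.57; limma, adjusted p 0.15), was the largest among the 20 genes with a pseudocount of 1. Over the alternatives it was 1.38 to 2.66, and that of Isg15 was 0.54 to 4.19, with the highest at a pseudocount of 0.1. It overlaps Gm11626 on the other strand, and whether the counting used strand is not given in the sources used here.

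Ifitm2, a membrane protein that restricts viral entry, lies at chr7:140954837-140955987 on the minus strand. It had WT levels of 8.17, 31.9 and 32.4 TPM and SMA levels of 72.5, 104 and 63.9 TPM. The library with the lowest WT value, WT 1, is the one with the highest mitochondrial share. The treated levels were 62.7, 68.9 and 49.6 TPM (MW150), 39.2, 33.5 and 14.4 TPM (Pifithrin-alpha) and 42.2, 56.1 and 58.2 TPM (SMN-C3). The log2 change from WT was 1.88 (SE 0.44; limma, adjusted p 0.10), and 1.26 without WT 1. All SMA libraries were above all WT libraries, and WT libraries did not overlap the SMN-C3 libraries either.

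Ifit2, a partner of Ifit1 and Ifit3 that binds RNA, lies at chr19:34550694-34576419 on the plus strand. It had WT levels of 0, 1.51 and 0.791 TPM and SMA levels of 2.83, 2.51 and 4.29 TPM; the log2 change was 1.33 (SE 0.43; limma, adjusted p 0.25). The groups did not overlap, though the level was low throughout. Lgals3bp, a secreted glycoprotein, had WT levels of 0.246, 1.42 and 2.38 TPM and SMA levels of 5.77, 5.42 and 1.98 TPM (log2 change 1.22, SE 0.50; limma, adjusted p 0.34). SMA 3 was below WT 3, so these groups overlapped. Ifi27 had a log2 change of 0.999 (SE 0.40; limma, adjusted p 0.33). Its gene lies at chr12:103434211-103440239 on the plus strand and that of Lgals3bp at chr11:118392751-118402092 on the minus strand.

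Xaf1, a proapoptotic interferon-induced gene, had a wide spread. It had WT levels of 5.50, 8.88 and 15.1 TPM and SMA levels of 6.94, 18.7 and 28.1 TPM (log2 change 0.71, SE 0.47; limma, adjusted p 0.46). The groups overlapped, since SMA 1 was below 2 of the WT libraries. The log2 change of Xaf1 was 0.31 without SMA 3 and 1.24 without SMA 1. Its gene lies at chr11:72301629-72313733 on the plus strand. The other 4 tested effectors, Usp18, Bst2, Rtp4 and Ifitm3, had log2 changes between 0.67 and 0.93 with overlapping groups. Usp18 removes Isg15 from proteins, and Bst2 (tetherin) holds budding viruses at the cell surface.

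Of the 9 effectors left out by the filter, Oas1a differed in which libraries held it. Oas1a makes 2′-5′ oligoadenylate, the activator of the ribonuclease RNase L. It was listed at 0 in all 3 WT libraries and the SMA libraries held 0.893, 0.566 and 0.568 TPM. With no filter limma called it (log2 change 0.74, SE 0.12, adjusted p 0.034), among 35 genes called in all. No other gene of the 31 was called then. The levels of Oas1a are under 1 TPM, and 68.8% of its 31-base words occur in other genes, mostly Oas1g. It was picked after its values were seen.

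Among the sensing genes the adaptor Mavs had the largest log2 change and the receptor Ddx58 the smallest. Mavs, at chr2:131234063-131248025 on the plus strand, had WT levels of 2.49, 1.86 and 2.69 TPM and SMA levels of 9.51, 5.57 and 5.88 TPM. Every SMA library was above every WT library, and the log2 change was 1.23 (SE 0.37; limma, adjusted p 0.22). Ddx58, the RIG-I receptor, had WT levels of 5.96, 4.86 and 1.21 TPM and SMA levels of 1.32, 3.91 and 7.68 TPM; its log2 change was 0.04 (SE 0.64; limma, adjusted p 0.97). The ranges of the 2 groups largely overlapped. Dhx58 (LGP2), a regulator of both cytoplasmic receptors, had 0.53, Tlr3 0.37 and Trim25, a ubiquitin ligase that activates RIG-I, 0.34 as log2 change, each with overlapping groups. Ifih1 was not tested and lay between 0.0716 and 0.848 TPM.

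For Ddx58 and Ifih1 much of the estimated TPM was assigned to transcripts not annotated as coding. These splits are estimates at low levels and unknown depth, and single transcripts varied widely between replicates. Ddx58-209, for example, had 3.86 TPM in WT 1 and 0 TPM in WT 2 and WT 3. Coding transcripts held 16.9% of the summed TPM of Ddx58, whose leading transcript was a processed transcript without a reading frame (52.97%). For Ifih1 the coding share was 20.5%, and a retained-intron transcript led with 78.2%. In Tlr3 it was 95.1%, in Mavs 89.7% and in Dhx58 77.3%. Coding transcripts made up all of the TPM of Isg15, Ifitm2, Ifitm3, Ifit2, Bst2 and Lgals3bp. The Parp14 coding share was 9.11%, and that of Mx1, whose leading transcript is a target of nonsense-mediated decay, was 28.2%. It was 23.6% for Oasl2 and 36.1% for Mx2, whose leading transcript is annotated as a polymorphic pseudogene. For Irf3 the coding share was 42.7%, and a retained-intron transcript led with 34.98%. By these estimates the gene-level values of Ddx58, Ifih1, Irf3, Parp14, Mx1, Mx2 and Oasl2 stand mostly for transcripts not annotated as coding.

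Of the 4 tested transcription factors 0 were called and 0 had an unadjusted p under 0.05 by limma. Irf3, which Mavs signalling activates by phosphorylation rather than by more RNA, was the most abundant of them. It had WT levels of 13.9, 25.4 and 14.6 TPM and SMA levels of 19.3, 27.4 and 16.9 TPM, with overlapping groups (log2 change 0.25, SE 0.45; limma, adjusted p 0.79). Irf3 lies at chr7:44997648-45002848 on the plus strand, overlaps Bcl2l12 on the other strand, and had a coding share of 42.7%. Irf1, a factor that responds to interferon gamma, had a log2 change of 1.06 (SE 0.56; limma, adjusted p 0.40). Its SMA values, 3.55, 4.05 and 3.33 TPM, lay within the WT range of 0.134 to 4.13 TPM. Irf9, the DNA-binding part of the type I interferon complex, had a log2 change of 0.70 and Stat2, its partner, 0.19.

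**Figure D3:**
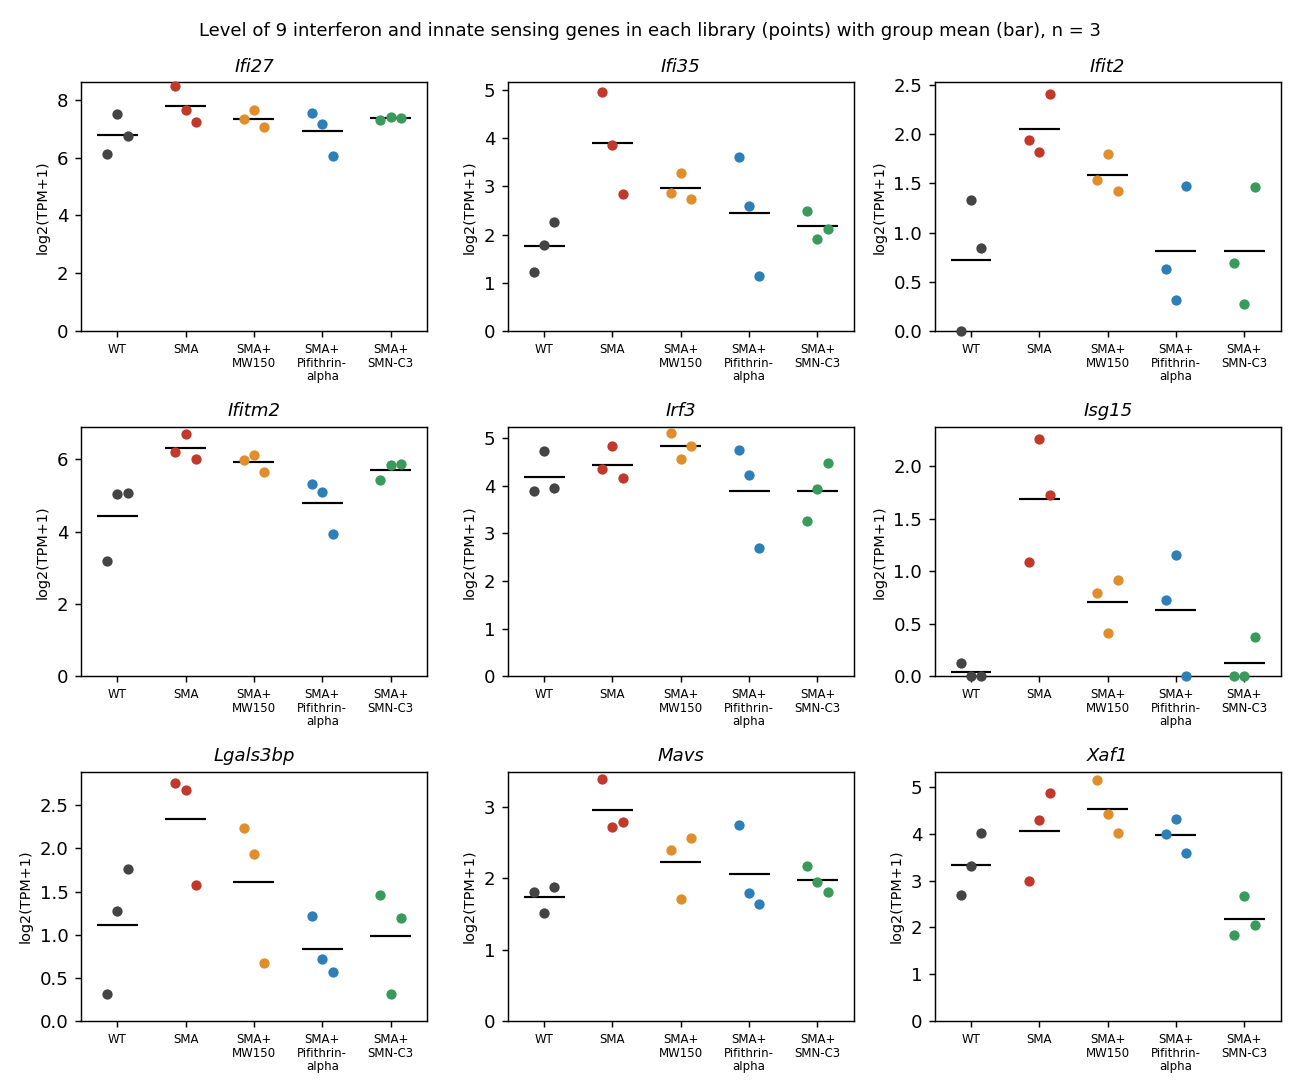
Level as log2(TPM+1) in each of the 15 libraries for the 9 genes whose values are given in full (7 with an unadjusted p under 0.05 in SMA against WT, and the 5 most abundant, with overlap), each panel on its own axis from 0; points are libraries and the horizontal bars are group means. The SMA points of Isg15, Ifi35, Ifitm2, Ifit2 and Mavs lie above all WT points, while those of Irf3 and Xaf1 overlap WT.

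The promoters of 4 of these genes are shown to place the known interferon element beside the values. Irf9, together with Stat2, binds an element known as the ISRE, with a core of GAAA, any 2 bases and GAAA again (on the other strand TTTC, any 2 bases and TTTC). The 200 bases before the RefSeq start (GRCm38.p6) follow for Isg15 (chr4:156200819-156201018, minus strand) and Ifitm2 (chr7:140955962-140956161, minus strand), which differed among the most between SMA and WT. Ifit1 (chr19:34640689-34640888, plus strand) is shown as a gene with the element that stayed near the floor, and Ifi35 (chr11:101448212-101448411, plus strand) as a gene with a large log2 change and no match. Capitals mark matches to the core on either strand, with overlaps allowed.
Isg15: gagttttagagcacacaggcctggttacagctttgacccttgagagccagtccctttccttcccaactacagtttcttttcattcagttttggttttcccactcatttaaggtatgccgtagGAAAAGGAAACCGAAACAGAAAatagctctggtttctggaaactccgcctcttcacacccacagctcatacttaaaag
Ifitm2: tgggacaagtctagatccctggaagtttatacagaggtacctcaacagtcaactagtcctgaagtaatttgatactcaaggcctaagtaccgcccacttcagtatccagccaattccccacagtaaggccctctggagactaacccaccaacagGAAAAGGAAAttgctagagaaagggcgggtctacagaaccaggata
Ifit1: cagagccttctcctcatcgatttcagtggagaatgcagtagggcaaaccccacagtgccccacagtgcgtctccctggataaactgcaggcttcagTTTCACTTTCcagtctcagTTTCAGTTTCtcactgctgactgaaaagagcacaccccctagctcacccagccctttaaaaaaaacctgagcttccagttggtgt
Ifi35: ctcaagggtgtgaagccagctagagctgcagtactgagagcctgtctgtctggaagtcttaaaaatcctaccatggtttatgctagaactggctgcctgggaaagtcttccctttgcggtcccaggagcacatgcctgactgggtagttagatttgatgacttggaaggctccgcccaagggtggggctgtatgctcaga
Isg15 has 3 overlapping matches, which begin at positions -78, -72 and -66 relative to the start. Ifitm2 has 1 match and Ifit1 has 2.

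A promoter window from 250 bases before to 50 after the start was found for 24 of the 31 genes, and 11 of these (45.8%) hold a match. Of all 27025 genes with a window 1079 (3.99%) do. The 11 are Bst2, Ddx58, Ifih1, Ifit1, Ifit3, Ifitm2, Ifitm3, Isg15, Oas1a, Rsad2 and Stat2. Among the genes tested for expression, the 6 with a match had log2 changes between SMA and WT of 0.04 to 1.88 with a median of 0.71. The 10 without a match had 0.25 to 2.13 with a median of 0.89. A match is a description of letters and not a measured binding site.

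The rest of the interferon pathway was read from lists of ligands, receptors, other sensing genes and other interferon-stimulated genes. Of 12 ligand genes 0 were tested, 8 were at 0 in every library, and the highest value was 1.14 TPM, of Ifnb1 in SMA 3. In every other library Ifnb1 was at 0. Ifnk and Ifnz were also highest in SMA 3, at 0.208 and 0.294 TPM, and Ifne in SMA+SMN-C3 2, at 0.665 TPM. Of all tested genes 0.363% were called and 10.6% were higher at an unadjusted p under 0.05, with a median log2 change of 0.24. The 9 receptor and kinase genes were all tested. Of these 0 were called by limma and 0 had an unadjusted p under 0.05, with a median log2 change of 0.42. Of 17 tested sensing genes beyond the set, 0 were called and 2 had an unadjusted p under 0.05 by limma. Among 48 other tested interferon-stimulated genes 1 was called and 8 had an unadjusted p under 0.05, with a median log2 change of 0.42. So the receptors were measured above the filter and the ligands were near or at 0.

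The called gene was Tap1, a subunit of the peptide pump that loads MHC class I molecules, and a described p53 target as well as an interferon-stimulated gene. Tap1 (chr17:34187553-34197225, plus strand) had WT levels of 0, 0.197 and 1.31 TPM and SMA levels of 21.9, 10.98 and 8.83 TPM. It rose by a log2 change of 3.31 (SE 0.50; limma, adjusted p 0.0041). The call was kept with each of the 15 libraries left out in turn and was lost in a fit of SMA and WT alone (limma, adjusted p 0.094). The next lowest p-values of these lists were those of Ifi30 (log2 change 1.52), Rnf135, a partner of RIG-I (1.57), Myd88, the adaptor of most Toll-like receptors (1.504), Psmb9, an immunoproteasome subunit (1.56), and Trim21, an antibody receptor (1.31). None of these 5 was called (limma, adjusted p 0.16 to 0.24). Psmb9 overlaps Tap1 on the other strand.

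The p53 targets are given for the same comparison. Of 43 tested p53 targets 14 were called higher in SMA than in WT and 32 had an unadjusted p under 0.05 by limma, with a median log2 change of 1.56 and 34 without overlap. Over all tested genes these shares were 0.363% called, 10.6% higher at an unadjusted p under 0.05 and 14.5% higher without overlap. Cdkn1a, the cell cycle inhibitor p21, had a mean of 42.7 ± 6.09 TPM over the WT libraries and of 1054 ± 427 TPM over the SMA libraries (SD, n = 3); its log2 change was 4.51 (SE 0.40; limma, adjusted p 1.56e-05). Mdm2, the ubiquitin ligase of p53, rose by 1.69 on the log2 scale (limma, adjusted p 0.025) and Ccng1 by 1.75 (limma, adjusted p 0.012). Without WT 1, WT 2, SMA 1 or SMA 3 Mdm2 was not called (limma, adjusted p 0.107, 0.0890, 0.197 and 0.0808), nor was Ccng1 without WT 2 or SMA 1 (limma, adjusted p 0.0637 and 0.101). In a fit of SMA and WT alone neither was called (limma, adjusted p 0.341 for Mdm2 and 0.308 for Ccng1), nor was Mdm2 with no filter (limma, adjusted p 0.0606) or Ccng1 under median-of-ratios scaling (limma, adjusted p 0.073). The count of called p53 targets was 7 without WT 2 and 6 without SMA 1. The p53 list had been chosen with earlier results of these samples known, so its count is not independent evidence of its direction.

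**Figure D4:**
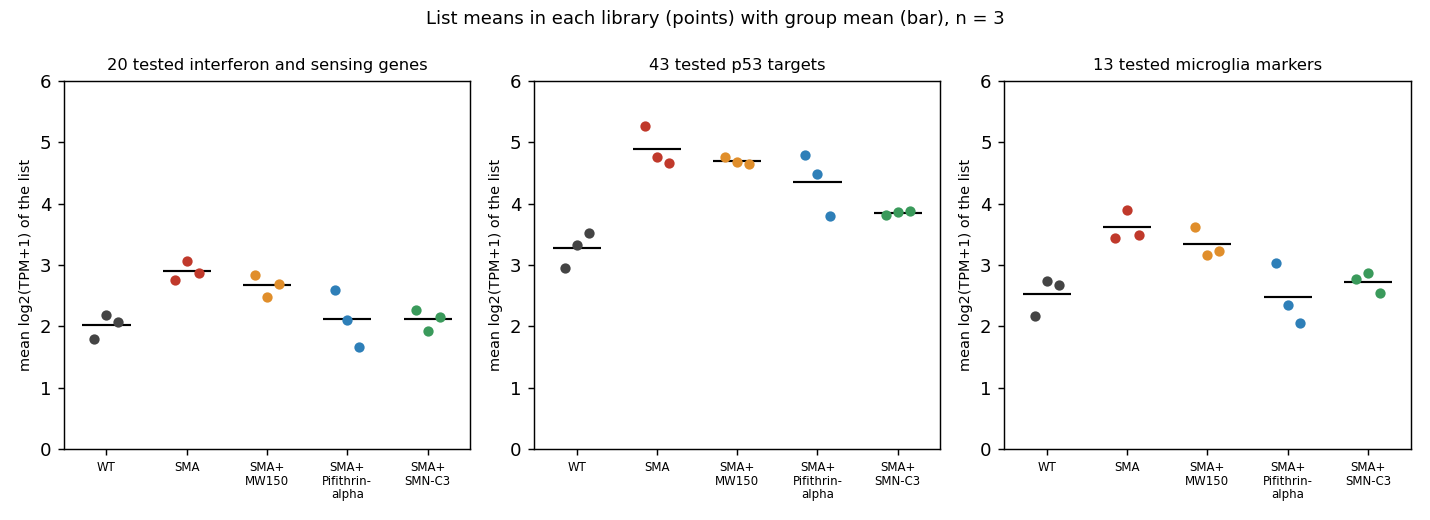
Mean log2(TPM+1) over the tested genes of 3 lists (the 20 interferon and sensing genes, 43 p53 targets, 13 microglia markers) in each of the 15 libraries; points are libraries. SMA libraries lie above WT libraries in all 3 lists, and the SMN-C3 libraries overlap the WT range in the interferon and microglia lists but not in the p53 list.

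Microglia markers also stood higher in SMA. Of 13 tested markers all 13 had a log2 change above 0, 7 had an unadjusted p under 0.05 and 1, C1qc, was called, with a median of 0.94. Of all tested genes 66.5% were above 0, 10.6% were higher at that unadjusted p and 0.363% were called. C1qc, a complement subunit made by microglia, was not called without WT 1, SMA 2 or SMA 3 (limma, adjusted p 0.0565, 0.0842 and 0.0541), nor in a fit of SMA and WT alone (limma, adjusted p 0.256). Without SMA+Pifithrin-alpha 1 or 3, 2 markers were called. Astrocyte markers had a median log2 change of 0.45 and oligodendrocyte lineage markers 1.06. Red blood cell markers had 0.54 and vascular markers -0.08. Motor neuron markers had a median of 0.00 but ranged from -1.87 to 0.95, and at an unadjusted p under 0.05 by limma 3 of 12 were lower and 1 was higher. The part of these cells in the values of the interferon genes was not tested. The mean log2(TPM+1) of the 20 genes lay between 1.79 and 2.19 for WT libraries and between 2.76 and 3.07 for SMA libraries.

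The 3 treatments are each compared with the same 3 SMA libraries, so their results are not independent of each other or of the comparison with WT. A high value in an SMA library makes all 3 treatments look lower. By limma's F test over the 5 groups 0 of the 20 genes were called (0.22% of all tested genes were), 7 had an unadjusted p under 0.05 (9.46% of all), and the lowest adjusted p was 0.196, that of Xaf1.

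Under SMN-C3, which acts on SMN2 itself, Isg15, Xaf1 and Ifi35 had the largest differences from vehicle SMA, and limma called 0 of the 20 genes. Of the 20 genes 18 had a log2 change below 0 (73.2% of all tested genes did), with Usp18 above 0 after quantile normalization, and the median was -0.69, beside -0.23 for all. By limma 6 had an unadjusted p under 0.05 (Isg15, Xaf1, Ifi35, Ifit2, Lgals3bp and Mavs; 7.94% of all tested genes were lower at this level), and 9 lay below all SMA libraries (18.2% of all did). Called genes were 0.0648% of all tested genes and 0 of the 20. The lowest adjusted p was 0.164, that of Isg15 (log2 change -1.57, SE 0.38, limma). With array weights, and without the 2 libraries with the highest mitochondrial share, Isg15 and Xaf1 were called. These fits called 231 and 166 genes in all, among them 17 and 15 p53 targets and 3 and 1 microglia markers, and Isg15 had passed the filter through the SMA libraries.

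Xaf1 had its lowest values in this group, 2.59, 5.39 and 3.12 TPM, below every SMA library and every WT library. Its log2 change from SMA was -1.86 (SE 0.47; limma, adjusted p 0.19). For Ifi35 it was -1.72 (limma, adjusted p 0.40), for Lgals3bp -1.35, for Ifit2 -1.24 and for Mavs -0.99. Mavs stood at 3.51, 2.84 and 2.50 TPM, Lgals3bp at 1.76, 0.246 and 1.29 TPM and Ifit2 at 0.619, 0.215 and 1.76 TPM. Ifi27 and Irf3 overlapped the SMA libraries, with 156, 167 and 164 TPM of Ifi27 and 8.60, 14.3 and 21.2 TPM of Irf3. The mean of the 20 genes per library was 1.92 to 2.27, overlapping the WT range. For the p53 list the means were 3.81 to 3.89 against 2.95 to 3.53 in WT, with no overlap. Of its 43 genes 24 had an unadjusted p under 0.05, lower, and 1, Ddit4l, was called. That count was 0 without WT 2, SMA 1, SMA 2 or any 1 of the SMN-C3 libraries, 2 without WT 1 or SMA+Pifithrin-alpha 1, 4 without SMA+Pifithrin-alpha 3, and 15 without the 2 libraries with the highest mitochondrial share. The microglia markers had a median log2 change of -0.87, with 6 of 13 at an unadjusted p under 0.05. Of all tested genes 7.94% were lower at that level and 0.0648% were called. The median was -1.08 for red blood cell, -0.84 for astrocyte, -0.71 for oligodendrocyte lineage, -0.58 for vascular and 0.17 for motor neuron markers.

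Under Pifithrin-alpha 19 of the 20 genes had a mean below that of vehicle SMA, all but Tlr3; Xaf1 was above 0 under other scalings, and Trim25 after quantile normalization. The median of the 20 genes against SMA was -0.80, beside -0.22 for all tested genes, and 65.5% of all tested genes were below 0. Without SMA+Pifithrin-alpha 3, 15 genes were below and 5 above, and the medians were -0.53 for the 20 genes and 0.005 for all. At an unadjusted p under 0.05, 9 genes were lower by limma (Ifitm2, Lgals3bp, Ifit2, Isg15, Ifitm3, Ifi35, Bst2, Mavs and Ifi27), against 7.55% of all. Of these, Isg15 had passed the filter through the SMA libraries. Called genes were 0.00648% of all tested genes and 0 of the 20, and the lowest adjusted p was 0.461. Ifitm2 had a log2 change of -1.52 (SE 0.44), Lgals3bp -1.51 (SE 0.50) and Ifit2 -1.24 (SE 0.43), and these 3 lay below all SMA libraries, as 9.76% of all tested genes did. Lgals3bp stood at 1.32, 0.642 and 0.482 TPM and Ifit2 at 0.553, 0.245 and 1.78 TPM. In the other genes given by library, values of this group overlapped SMA. Ifi27 stood at 185, 142 and 66.1 TPM, Mavs at 5.71, 2.47 and 2.12 TPM, Irf3 at 25.9, 17.8 and 5.47 TPM, and Xaf1 at 14.97, 18.8 and 11.1 TPM. With array weights 6 genes were called (Ifit2, Ifitm2, Ifitm3, Irf1, Lgals3bp and Mavs), but that fit called 1574 genes in all, 8 p53 targets and 8 microglia markers among them, and gave SMA+Pifithrin-alpha 2 a weight of 5.71.

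The 3 libraries of this group differed among themselves. Their mean log2(TPM+1) over the 20 genes was 2.59, 2.11 and 1.66 in replicates 1, 2 and 3, while the mitochondrial share was 5.78%, 12.6% and 20.4%. The part of the mitochondrial share in these values was not tested. Microglia markers had a median log2 change of -1.22 against SMA, with 8 of 13 at an unadjusted p under 0.05 by limma. The median was -1.29 for oligodendrocyte lineage, -1.16 for red blood cell, -0.73 for astrocyte, -0.69 for vascular and -0.14 for motor neuron markers. Of all tested genes 7.55% were lower at an unadjusted p under 0.05. The p53 targets had a median of -0.46, with 11 of 43 lower at that level and 0 called.

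Under MW150 the genes lay on both sides of vehicle SMA, 13 below and 7 above (16 and 4 after quantile normalization, with Ddx58, Tlr3 and Trim25 then below), and limma called 0 of the 20. The median log2 change was -0.26, beside 0.06 for all tested genes, where 42.1% of all tested genes were below 0 and 57.9% above. By limma 1 gene had an unadjusted p under 0.05, Isg15 (0.389% of all tested genes were lower at this level), with a log2 change of -0.99 (SE 0.38, adjusted p 1). Called genes were 0.00648% of all tested genes and 0 of the 20. Isg15, Mavs and Ifit2 lay below all SMA libraries, as 3.41% of all tested genes did. Since Isg15 had passed the filter through the SMA libraries, a lower value here was partly built into its selection. Mavs was at 4.27, 2.29 and 4.90 TPM and Ifit2 at 1.90, 2.48 and 1.67 TPM. The others overlapped SMA: Lgals3bp stood at 3.73, 2.81 and 0.595 TPM, Ifi27 at 159, 197 and 133 TPM, Irf3 at 33.5, 22.7 and 27.7 TPM and Xaf1 at 34.5, 20.4 and 15.1 TPM. The mean of the 20 genes was 2.48 to 2.84 per library, and that of the p53 list 4.65 to 4.76. The p53 targets had a median of -0.24 with 0 called, and the microglia markers -0.32. The median was -0.41 for red blood cell, -0.05 for astrocyte, 0.17 for oligodendrocyte lineage, 0.24 for vascular and 0.32 for motor neuron markers. Whether 1 treatment differed from another was not tested for this set.

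**Figure D5:**
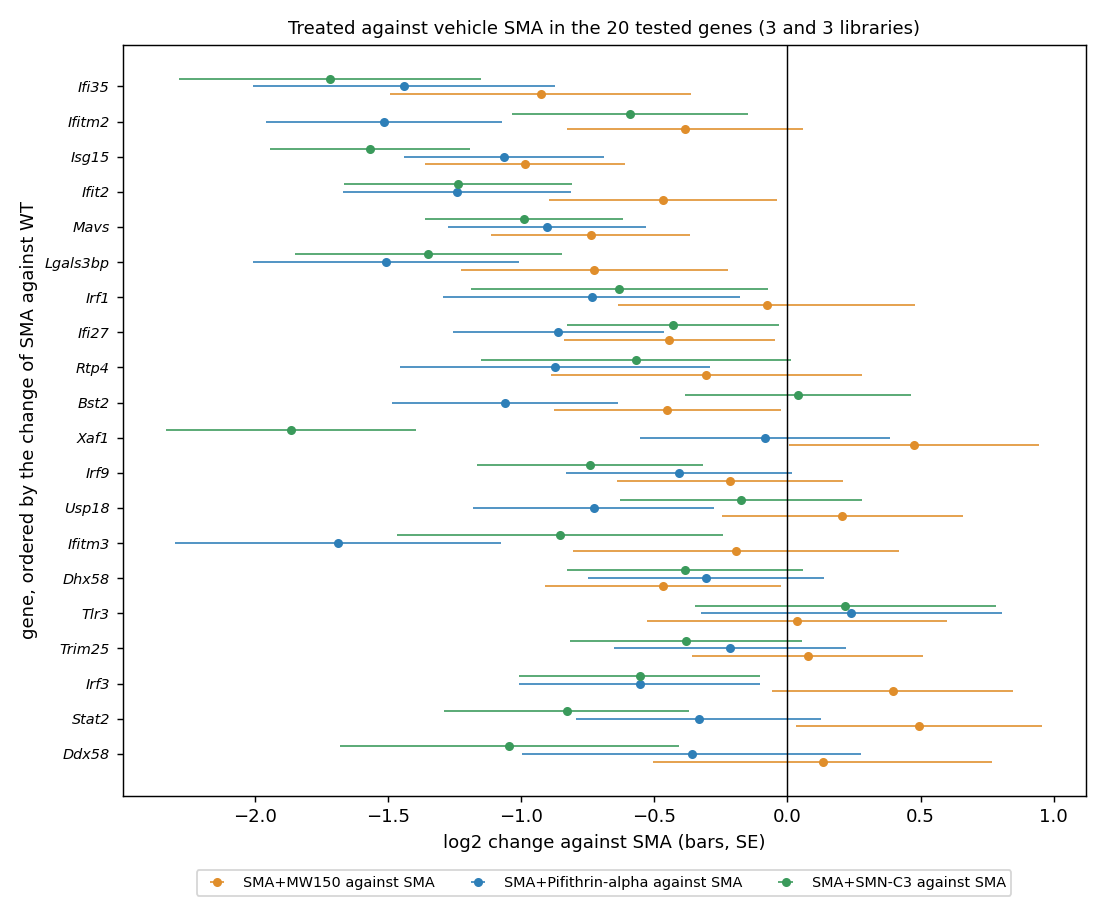
Log2 change from vehicle SMA of the 20 tested genes under MW150, Pifithrin-alpha and SMN-C3, with bars of 1 standard error from limma (3 libraries a group, the same SMA libraries in all 3 comparisons). Xaf1 is at -1.86 under SMN-C3, -0.08 under Pifithrin-alpha (above 0 under other scalings) and 0.48 under MW150. Isg15 is below 0 under all 3, but it passed the filter through the SMA libraries.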

How the data were processed

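Poly(A) RNA of laser-captured motor neurons was sequenced with paired ends in 15 libraries. The authors deposited TPM per gene and per transcript, estimated with kallisto 0.44.0 on GRCm38.p6 (mm10), per the submitters' processing notes; trimming, strand and annotation release are not given in the sources used here. Identifiers matched GENCODE M21, whose positions were used. Deposited TPM hold no counts, so the depth behind a value is unknown and no counting interval is given.

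Genes at 1 TPM or more in at least 3 libraries were tested on log2(TPM+1) with limma 3.58.1 (R 4.3.3; trended variances, 1 mean per group over all 15 libraries, two-sided) and Benjamini-Hochberg adjustment over all 15425 genes. Called means adjusted p under 0.05. The procedure was run on simulated data, but the share of changes it recovered is not given here. That run therefore says nothing here about how many changes of this size were missed. Tables and figures used Python 3.11.15, pandas 2.3.3 and matplotlib 3.10.9. Promoters are RefSeq's (GRCm38.p6). The genes and lists were chosen with earlier results of these data known. Per-library values are given for genes called anywhere, those with an unadjusted p under 0.05 in SMA against WT and the 5 most abundant. From the other interferon lists, called genes and the 6 lowest p-values in that comparison are named. C1qc, Oas1a, Ddx58, Irf1 and the untested genes given with values were picked after their values were seen. Alternatives covered pseudocount, filter, scaling, groups fitted, array weights (limma's gene-by-gene method, since its default did not converge), mitochondrial genes, replicate block and each library left out.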

Additional observations from a re-analysis of the deposited data

How the results depend on the processing

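With each of the 15 libraries left out in turn, 0 to 3 genes of the set were called in SMA against WT (3 without SMA+Pifithrin-alpha 3, otherwise 0) and 0 to 0 in the 3 treatments and the F test. SMA against WT gave 1 called gene of the set with no filter (Oas1a), 2 with array weights and 1 without the 2 libraries with the highest mitochondrial share. Those fits called 35, 100 and 88 genes in all. Pifithrin-alpha gave 6 with array weights, of 1574 called in all. SMN-C3 gave 2 of 231 with array weights and 2 of 166 without those 2 libraries. The F test gave 7 with array weights and 1 without those 2 libraries. Its totals over all genes in these fits are not given here, so these F test counts have no share to be set against. The median log2 change of the set against WT was 1.03 with a pseudocount of 0.1 and 0.41 with 5. Under Pifithrin-alpha it was -1.13 and -0.37 with these, -0.41 with no filter and -1.15 with a mean of 5 TPM required. Under SMN-C3 it was -0.41 after quantile normalization. Leaving out each library gave medians of 0.70 to 0.94 (WT), -0.38 to -0.13 (MW150), -1.03 to -0.53 (Pifithrin-alpha) and -0.96 to -0.55 (SMN-C3). In every setting the median was above 0 against WT and below 0 in the 3 treatments. The median of all tested genes was also above 0 against WT in every setting. In most settings it was below 0 under Pifithrin-alpha and SMN-C3 but above 0 under MW150. The cause of the shifts between settings was not tested, and a no-filter or stricter fit tests other genes.

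Over all genes, calls between SMA and WT numbered 35 with no filter, 7 with only these groups fitted, 100 with array weights and 88 without the 2 high-mitochondrial libraries. Under MW150 they were 0 with a pseudocount of 0.1, 2 with no filter, 0 at a mean of 5 TPM, 2 with only the groups compared and 3 with array weights. Under Pifithrin-alpha the same settings gave 0, 3, 0, 0 and 1574. Under SMN-C3 calls were 4 with a pseudocount of 5, 4 at a mean of 5 TPM, 5 after quantile normalization, 0 with only the groups compared, 231 with array weights and 166 without the 2 libraries. Leaving out each library gave 20 to 114 (WT), 0 to 2 (MW150), 0 to 1 (Pifithrin-alpha) and 0 to 20 calls (SMN-C3), with 114 and 20 without SMA+Pifithrin-alpha 3. Called p53 targets were 7 with no filter and 3 with only SMA and WT fitted.

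The log2 change of Xaf1 under Pifithrin-alpha reversed to 0.17 (median-of-ratios scaling), 0.085 (quantile), 0.043 (array weights), 0.029 (rescaled without mitochondrial genes) and 0.10 (without the 2 libraries), and ranged from -0.61 to 0.32 with 1 library left out. That of Irf3 reversed to 0.045 without SMA+Pifithrin-alpha 3, 1 of those 2 libraries, with a range from -0.98 to 0.045. Under MW150 the log2 change of Xaf1 was -0.055 without SMA 1 and up to 0.88 with another library left out.

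Replicate numbers did not pair the groups compared here: 4 of 30 same-number pairs of libraries had deviations correlated above 0.1 (r from -0.34 to 0.29). Of these, 3 are the pairs of WT and SMA+SMN-C3 (r of 0.29, 0.10 and 0.18), which were not compared with each other. With a replicate block 48, 1, 1 and 11 genes were called, 0 of them in the set, and its medians stayed at 0.73, -0.26, -0.80 and -0.69.

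Depth is unknown, so values under 1 TPM carry an error that cannot be stated, and 3 libraries a group limit the precision. An adjusted p above 0.05 does not show that levels were equal.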
